A study of Mus musculus with 8 samples.

Results

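A set of 10 genes was followed across 8 libraries of mouse regulatory T (Treg) cells, the CD4+ Foxp3+ T cells that restrain immune responses. They are S100a4, S100a6, S100a10, S100a11, Anxa1, Anxa2, Lgals1, Lgals3, Vim and Ahnak, chosen by name out of 52459 genes in the table: 4 S100 genes, 2 annexin genes, 2 galectin genes, and the genes for the filament protein vimentin and the giant scaffold protein AHNAK. All 10 reached the mean of at least 10 normalized read counts over the 8 libraries that was asked of a gene before testing, as did 15419 genes in all.

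The cells were CD4+CD25hi Treg cells sorted from pooled spleen and lymph nodes of several healthy female C57BL/6 mice per sample, heterozygous for the Foxp3-YFPcre allele and carrying floxed Stim1 and Stim2 alleles. Their ages were not given in the sources used here. Cre was expressed from the X-linked Foxp3 locus, so each mouse held both kinds of cell: the YFPcre- Treg cells, labelled WT, carried unrecombined floxed alleles, and the YFPcre+ Treg cells were labelled Stim1/2-deficient. Cells of either label were sequenced unstimulated or after 16 h on plate-bound antibodies to CD3 and CD28 at 1 µg/ml, with 2 libraries in each of the 4 groups. Replicates are numbered 3 and 4 for unstimulated WT cells and 1 and 2 elsewhere. In unstimulated cells, the label therefore cannot be told apart from any difference between these numbered sets. The values are normalized read counts, that is, reads per gene divided by 1 size factor per library.

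STIM1 and STIM2 sense the calcium content of the endoplasmic reticulum and open the ORAI channels of the plasma membrane, which gives the sustained calcium entry that follows T cell receptor signalling. S100 proteins are small EF-hand proteins that bind calcium and then bind partner proteins, and annexins bind acidic membrane lipids in a calcium-dependent way. S100A10 pairs with annexin A2, S100A11 with annexin A1, and AHNAK binds the annexin A2 and S100A10 complex at the plasma membrane. Galectins bind galactose-containing sugars of glycoproteins and are released without a signal peptide. Transcripts of several of these genes are known to be higher in antigen-experienced and tissue-homing T cells than in naive T cells.

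The libraries held 11851853 to 16306540 reads, and 1 read was worth 0.759 to 1.48 normalized read counts. The mitochondrial ribosomal RNA gene mt-Rnr2 took 9.78% to 22.1% of the values of a library. Stim1 was at 1139 and 1377 in the WT and 1538 and 1868 in the labelled unstimulated libraries, and Stim2 at 906 and 908 in the WT and 904 and 744 in the labelled ones. Neither passed the test by limma (adjusted p = 0.236 and 0.721). Counts over whole genes include exons outside a deleted part, so they check nothing about the deletion. The study itself reported that YFPcre+ Treg cells of such females lacked the calcium entry that STIM proteins trigger. By RT-PCR it also reported loss of Stim1 and Stim2 transcripts in Treg cells of male mice. Every direction below is that of libraries labelled Stim1/2-deficient. All 7 Treg cell markers were present in all 8 libraries. In unstimulated cells all 7 had log2 fold changes below 0. Of these, limma called Ctla4 (−1.79), Tnfrsf18 (−1.23) and Ikzf2 (−1.13) lower in the labelled libraries, beside 3.35% of all genes. The number of the 7 called was 0 in the 4 unstimulated libraries alone, 1 with every gene above 0 and 5 by DESeq2. Foxp3 itself was at 10000.5 and 8159 in the WT and 4947 and 4258 in the labelled unstimulated libraries (log2 fold change −0.98, limma adjusted p = 0.0591). The labels' read file names place the unstimulated libraries on 1 sequencing lane and the stimulated libraries on another, so stimulation and lane cannot be told apart.

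Promoters of 4 genes are shown because they belong to the pair of genes with the largest falls (S100a4, S100a6) and to the pair that holds an AP-1 motif (S100a11, Anxa2), the motif bound by the FOS and JUN factors that T cell receptor signalling induces. Each run is the 250 bases before the RefSeq start site on GRCm38.p6, written 5′ to 3′ on the gene's strand, and all 4 genes lie on the plus strand. They span chr3:90603520-90603769 (S100a4), chr3:90612644-90612893 (S100a6), chr3:93520246-93520495 (S100a11) and chr9:69453433-69453682 (Anxa2). Capitals mark matches to the AP-1 motif TGANTCA and the TATA box TATAAA on either strand, which do not overlap each other.
S100a4: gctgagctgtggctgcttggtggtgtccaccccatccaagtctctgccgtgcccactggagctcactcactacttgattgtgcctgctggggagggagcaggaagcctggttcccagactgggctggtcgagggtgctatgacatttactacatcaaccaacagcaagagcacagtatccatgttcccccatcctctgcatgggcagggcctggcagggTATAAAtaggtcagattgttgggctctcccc
S100a6: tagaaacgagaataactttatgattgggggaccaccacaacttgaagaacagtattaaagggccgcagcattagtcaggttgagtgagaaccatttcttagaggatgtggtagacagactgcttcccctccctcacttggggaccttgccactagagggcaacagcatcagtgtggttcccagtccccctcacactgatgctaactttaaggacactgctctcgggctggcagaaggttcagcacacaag
S100a11: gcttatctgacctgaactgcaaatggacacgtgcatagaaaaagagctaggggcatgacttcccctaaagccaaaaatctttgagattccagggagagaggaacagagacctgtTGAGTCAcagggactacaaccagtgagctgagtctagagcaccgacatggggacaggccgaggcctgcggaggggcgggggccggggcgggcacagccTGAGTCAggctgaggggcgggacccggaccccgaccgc
Anxa2: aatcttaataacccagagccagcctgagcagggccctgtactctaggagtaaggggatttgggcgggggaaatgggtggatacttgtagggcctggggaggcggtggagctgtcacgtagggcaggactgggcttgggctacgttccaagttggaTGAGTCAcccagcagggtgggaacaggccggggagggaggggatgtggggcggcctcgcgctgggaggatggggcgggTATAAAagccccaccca
The S100a4 promoter held a TATA box that began 31 bases before the start and no AP-1 match. S100a6, which lies near S100a4 on the chromosome with S100a5 between them, held neither. S100a11 held 2 AP-1 matches, the first beginning 136 bases before the start, and Anxa2 held 1 that began 95 bases before it, with a TATA box 17 bases before the start.

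Of the 10 genes, 8 were in the promoter table. Among them 2 held the AP-1 motif, against 6.75% of all 32851 promoters of this length. TATAAA was in 4 of the 8 (Vim, S100a4, Anxa2 and Anxa1) and in 12.4% of all promoters. The short core GGAAA of sites for NFAT, the factor activated by calcium and calcineurin, was in 4 of the 8 and in 55.6% of all. The core CACCC of sites for KLF factors was in 5 of the 8 and in 52.0% of all, and the cAMP response element TGACGTCA was in 0 of the 8 and 1.55% of all. Motifs were searched on both strands, and a match is a description of the letters only.

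In unstimulated Treg cells, 8 of the 10 genes were lower in the libraries labelled Stim1/2-deficient than in WT libraries: S100a4, S100a6, S100a10, S100a11, Anxa2, Lgals1, Vim and Ahnak. The falls ran from 2.58-fold for Ahnak to 8.01-fold for S100a4, as ratios of group means. Over all genes, 3.35% were called lower (517 of 15419) and 4.73% in either direction, where a call asks for an adjusted p under 0.05 by limma and a change of more than 1.5-fold, 2-sided. The median log2 fold change of the 10 genes was −1.67, beside −0.01 over all genes tested. None was called higher, beside 1.38% of all genes. In bulk RNA, fewer cells of a type and less RNA per cell cannot be told apart. Of 16 tested macrophage and monocyte markers, 14 had log2 fold changes above 0 in unstimulated cells and 2 (Ccr2 and Axl) below 0. Their values are given below with the other marker lists.

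**Figure D1:**
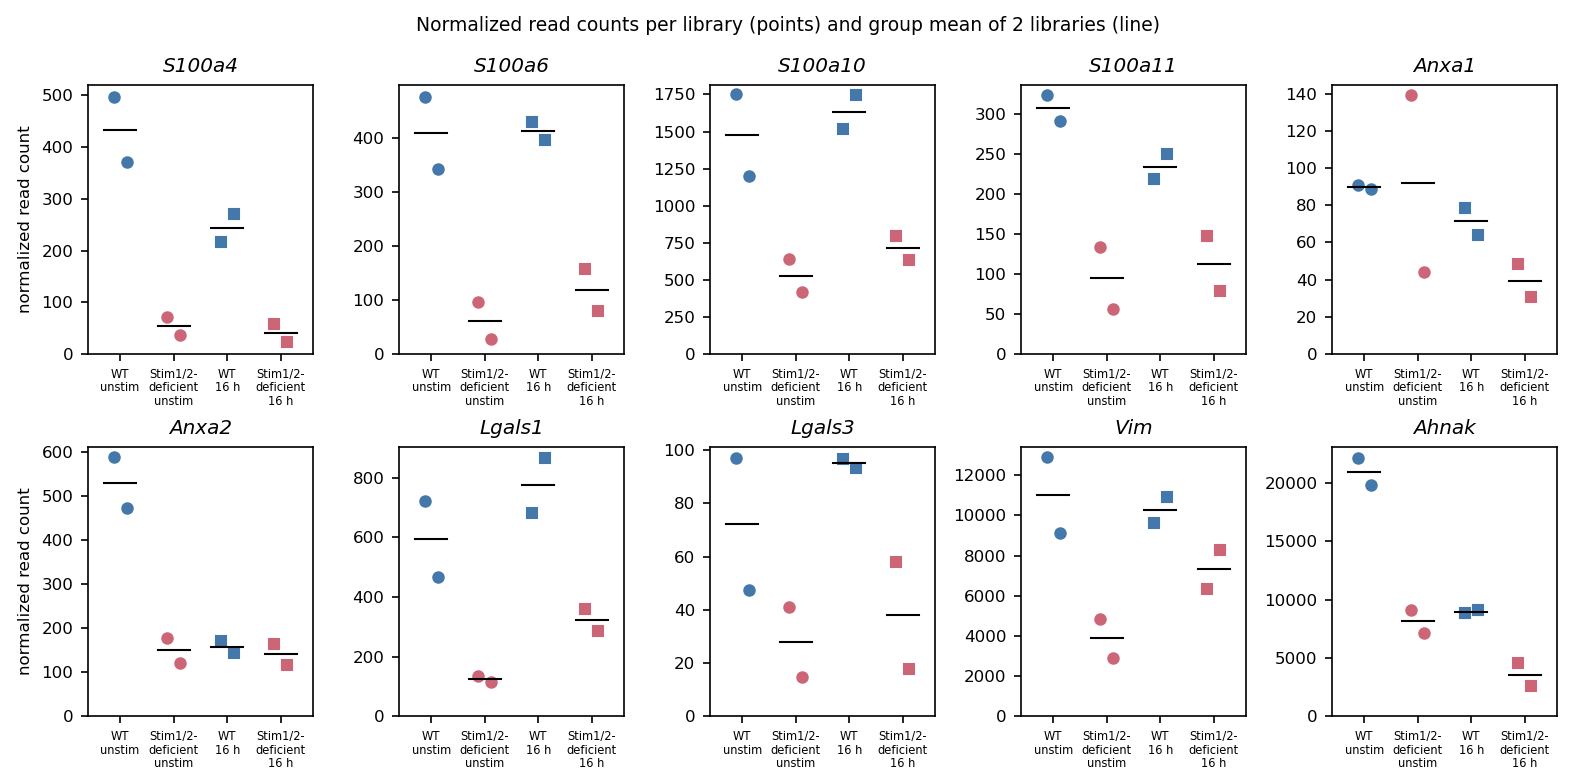
Normalized read count (vertical axis, linear, from 0) of each of the 10 genes in the 4 groups, where points are single libraries and lines are means of 2 libraries. Stim1/2-deficient is the label of the red libraries. In unstimulated cells both red points lie under both blue points for every gene but Anxa1, and after 16 h for every gene but Anxa2.

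Among the S100 genes, S100a4, which codes for a protein that binds non-muscle myosin IIA, showed the largest fall. It was at 497 and 371 normalized read counts in the WT and 72.3 and 36.1 in the labelled unstimulated libraries, the last of these resting on 27 reads. Means were 434 ± 89.6 and 54.2 ± 25.7 (SD, n = 2 each), and the log2 fold change was −3.05 ± 0.48 (SE, limma adjusted p = 0.0113). Counted from the lowest log2 fold change, S100a4 was 75th of the 15419 genes.

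S100a6, which codes for calcyclin, was at 477 and 343 in the WT and 95.4 and 28.1 in the labelled libraries, the lowest from 21 reads. The groups did not overlap, and the fall was 6.64-fold (log2 fold change −2.94 ± 0.52, limma adjusted p = 0.0173). S100a10, whose product has lost calcium binding and stays in the open form that holds annexin A2, was at 1750.4 and 1198 in the WT and 639 and 419 in the labelled libraries. Both labelled libraries lay below both WT libraries, 2.79-fold lower by their means (log2 fold change −1.48 ± 0.27, limma adjusted p = 0.0181). S100a11 was at 324 and 291 in the WT and 134 and 56.1 in the labelled libraries, which again did not overlap. Its fall of 3.23-fold passed the test by the narrowest margin of the 8 (log2 fold change −1.81 ± 0.43, limma adjusted p = 0.0447).

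The 4 S100 genes lie in a pair of groups on chromosome 3. S100a4 and S100a6 are 6849 bases apart inside the run of S100 genes from S100a1 to S100a9. Of 12 protein-coding genes there, 6 were tested and only S100a4 and S100a6 were called. S100a11 and S100a10 are 28829 bases apart, 2906082 bases beyond S100a6, with no other protein-coding gene in the annotation between them. None of the 4 tested protein-coding genes that flank the S100a1 to S100a9 run was called.

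The annexin genes differed from each other in unstimulated cells. Anxa2, whose product links membranes to actin, was at 588 and 473 in the WT and 178 and 122 in the labelled libraries. It was 3.54-fold lower, without overlap (log2 fold change −1.83 ± 0.30, limma adjusted p = 0.0142). Anxa1, which codes for an annexin known for its release as an anti-inflammatory mediator, was at 90.7 and 88.6 in the WT and 139 and 44.1 in the labelled libraries. The labelled libraries lay on either side of the WT libraries. Its log2 fold change was −0.19 with a 95% interval from −1.35 to 0.98 (limma adjusted p = 0.875), and it was −1.01 without the labelled replicate 1 and 0.63 without the labelled replicate 2.

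Of the galectin genes, Lgals1 was at 722 and 467 in the WT and 136 and 114 in the labelled unstimulated libraries. Galectin-1, its product, is known to be made by Treg cells and to bind glycans of activated T cells. Lgals1 was 4.76-fold lower and had the smallest adjusted p of the 10 genes (log2 fold change −2.21 ± 0.28, limma adjusted p = 0.0057). Lgals3, which codes for the chimeric galectin-3, was at 97.1 and 47.3 in the WT and 40.9 and 14.7 in the labelled libraries, where the lowest value rests on 11 reads. The groups did not overlap, but the difference did not pass (log2 fold change −1.42, 95% interval −2.88 to 0.03, limma adjusted p = 0.237).

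Vim and Ahnak had the highest normalized read counts of the 10 genes, a scale that also grows with transcript length. Vim was at 12924 and 9138 in the WT and 4857 and 2912 in the labelled unstimulated libraries, without overlap. Its fall was 2.84-fold (log2 fold change −1.53 ± 0.27, limma adjusted p = 0.0169). Ahnak, whose product has been linked to calcium channel function in T cells, was at 22139.9 and 19800.2 in the WT and 9136 and 7151 in the labelled libraries. It had the smallest fall among the 8, 2.58-fold (log2 fold change −1.37 ± 0.25, limma adjusted p = 0.0196).

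Of the 10 genes, 9 had both labelled libraries below both WT libraries, as had 27.1% of all genes. The calls rested on both WT libraries, and so did those over all genes. A fit without WT replicate 3 or 4 leaves 1 library in that group, and most calls were then lost, among the 10 and over all genes. A fit without a labelled unstimulated library also leaves 1 in its group, but most calls among the 10 were then kept. Over all genes the calls did not fall there. The cause of this difference was not tested. With any 1 library left out all 8 log2 fold changes stayed below 0. They ran from −3.54 to −2.55 for S100a4 and from −1.55 to −1.20 for Ahnak. Without a WT stimulated library, which enters the shared estimate of the spread, fewer of the 10 and fewer of all genes were called. S100a11 lost its call in most alternatives tried.

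**Figure D2:**
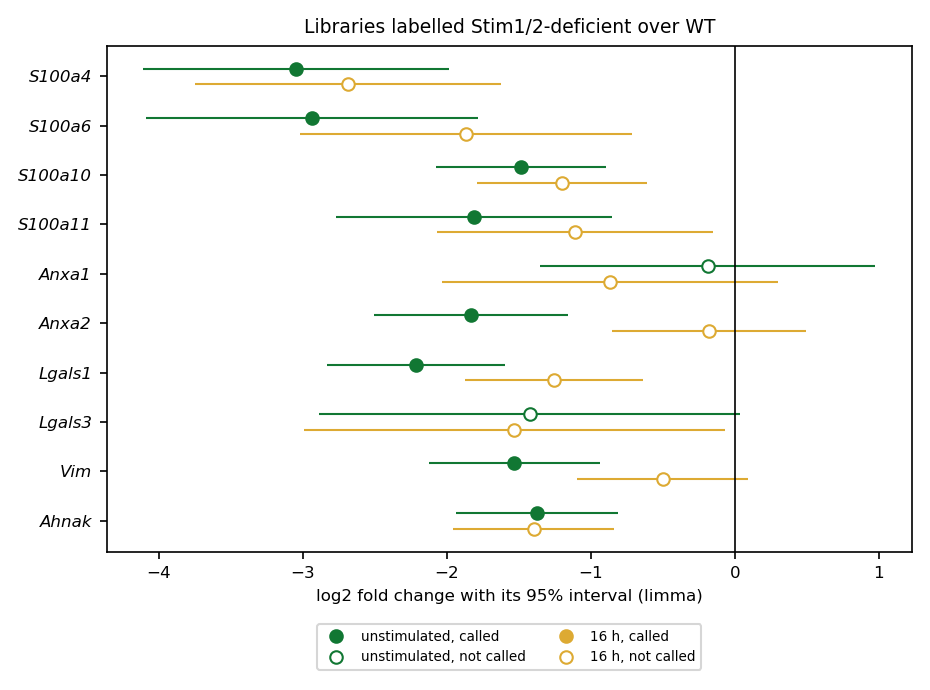
Log2 fold change with its 95% interval from limma (horizontal axis, libraries labelled Stim1/2-deficient over WT) for each gene, unstimulated in green and after 16 h in yellow, with filled points for called genes. The 8 called genes lie between −3.05 and −1.37 in unstimulated cells, and no gene was called after 16 h.

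After 16 h of stimulation all 10 log2 fold changes were again below 0, with a median of −1.23 beside 0.02 over all genes, but limma called none of the 10. It called 0.272% of all genes (42), and 0.11% lower. At an unadjusted p under 0.05 and more than 1.5-fold, 7 of the 10 were lower, beside 6.95% of all genes. DESeq2 on the recovered reads called 5 (S100a4, S100a6, S100a10, Lgals1 and Ahnak), beside 550 genes in all, 299 of them lower. By edgeR none of the 10 was called, beside 1 gene in all.

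S100a4 was at 216 and 270.3 in the WT and 58.8 and 22.8 in the labelled stimulated libraries, which did not overlap (log2 fold change −2.69 ± 0.48, limma adjusted p = 0.0537). Ahnak was at 8868 and 9086 in the WT and 4524 and 2567 in the labelled libraries, again apart (log2 fold change −1.40 ± 0.25, limma adjusted p = 0.0537). S100a6, S100a10 and Lgals1 were the other genes that DESeq2 called. S100a6 was at 430.2 and 397 in the WT and 158 and 80.2 in the labelled libraries (limma adjusted p = 0.144). S100a10 was at 1519.8 and 1747 in the WT and 798 and 632 in the labelled libraries, and Lgals1 at 682 and 866 against 359.7 and 286 (limma adjusted p = 0.0832 for both). In each of these 5 genes, and in 9 of the 10, both labelled libraries lay below both WT libraries, as in 23.1% of all genes.

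For S100a11 the values after 16 h were 219 and 249.8 in the WT and 148 and 78.5 in the labelled libraries (limma adjusted p = 0.281), and for Lgals3 they were 96.6 and 93.4 against 58.0 and 17.7 (limma adjusted p = 0.336). Vim was at 9635 and 10905 in the WT and 6345 and 8296 in the labelled libraries (log2 fold change −0.50, 95% interval −1.09 to 0.10, limma adjusted p = 0.455). These 3 genes were apart without overlap, yet their differences did not pass. Anxa1 was at 78.7 and 63.8 in the WT and 48.4 and 30.4 in the labelled libraries, also without overlap (limma adjusted p = 0.518).

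Anxa2 was the gene whose stimulated groups overlapped. It was at 171 and 144 in the WT and 164 and 117 in the labelled libraries, with a log2 fold change of −0.18 and a 95% interval from −0.85 to 0.50 (limma adjusted p = 0.851).

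The change of the genotype difference with stimulation was tested as an interaction, which limma called for 0 of the 15419 genes (0%). Of the 10 genes, 3 passed an unadjusted p under 0.05 and more than 1.5-fold, beside 8.09% of all genes. These were Anxa2 (interaction 1.66 ± 0.43 on the log2 scale, 95% interval 0.70 to 2.61, limma adjusted p = 0.556), Vim (1.03 ± 0.38, adjusted p = 0.569) and Lgals1 (0.96 ± 0.39, adjusted p = 0.580). DESeq2 and edgeR called none of the 10, beside 50 and 0 of all genes. For Ahnak the interaction was −0.02 with an interval from −0.82 to 0.77. The 2 genotype differences above, and the 2 stimulation differences below, share libraries with the interaction.

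In WT Treg cells Anxa2 and Ahnak were lower in the stimulated libraries, which were also on the other lane. Anxa2 went from 588 and 473 to 171 and 144, a 3.37-fold fall (log2 fold change −1.74 ± 0.30, limma adjusted p = 0.00400), and Ahnak from 22139.9 and 19800.2 to 8868 and 9086, 2.34-fold lower (log2 fold change −1.22 ± 0.25, limma adjusted p = 0.00838). These 2 of 10 genes stand beside 13.1% of all genes called lower, and 0 of 10 beside 10.2% called higher. With libraries rescaled to equal totals these shares of all genes were 6.32% lower and 27.6% higher. The other 8 were not called, with log2 fold changes from −0.83 for S100a4 to 0.48 for Lgals3. The stimulated WT values of S100a6, S100a10, Lgals3 and Vim lay within the range of the unstimulated WT values.

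In the libraries labelled Stim1/2-deficient, Ahnak also fell, from 9136 and 7151 to 4524 and 2567 (log2 fold change −1.25 ± 0.25, limma adjusted p = 0.00677). Lgals1 rose from 136 and 114 to 359.7 and 286 (log2 fold change 1.36 ± 0.28, limma adjusted p = 0.00693), and Vim from 4857 and 2912 to 6345 and 8296 (0.95 ± 0.27, adjusted p = 0.0271). Among all genes 12% were called lower and 13% higher in this comparison, and 6.98% and 24.6% with equal totals. Anxa2 was at 178 and 122 before and 164 and 117 after stimulation (log2 fold change −0.09, 95% interval −0.76 to 0.59). S100a6 was at 95.4 and 28.1 before and 158 and 80.2 after, with overlap (log2 fold change 1.10, limma adjusted p = 0.144). Rescaling the libraries to equal totals moved the median of all genes by 0.51 in WT and 0.38 in labelled libraries, and under it Ahnak in WT was no longer called (log2 fold change −0.70, adjusted p = 0.0505). Leaving out any 1 of the 4 WT libraries also ended that call (adjusted p from 0.0565 to 0.0728), and Vim was not called without labelled unstimulated replicate 2 (0.58, adjusted p = 0.115), labelled stimulated replicate 2 (0.75, adjusted p = 0.140) or either WT stimulated library (adjusted p = 0.0514 and 0.0526), with every gene above 0 (adjusted p = 0.0550) or in the 4 libraries alone (adjusted p = 0.0893).

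**Figure D3:**
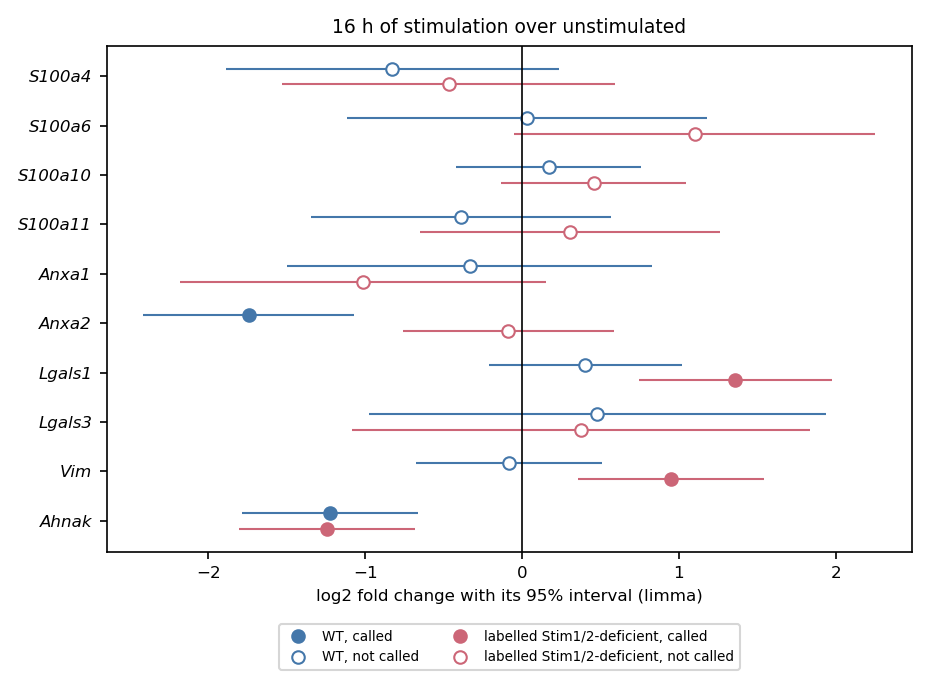
Log2 fold change of 16 h of stimulation over no stimulation with its 95% interval from limma (horizontal axis), WT libraries in blue and labelled Stim1/2-deficient libraries in red, filled where called. Anxa2 fell in WT (−1.74) and was near 0 in the labelled libraries, Ahnak fell in both, and Lgals1 and Vim rose in the labelled libraries.

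The pairing partners S100a10 and Anxa2 did not keep 1 ratio across the groups. Per kilobase of exon, S100a10 exceeded Anxa2 9.16 and 7.80 times in WT and 11.03 and 10.6 times in labelled unstimulated libraries. After stimulation the ratio was 27.4 and 37.3 in WT and 15.0 and 16.6 in labelled libraries, all 4 above the unstimulated libraries. Vim over Ahnak, per kilobase, was 3.28 to 4.70 in the unstimulated libraries of both labels, 8.75 and 9.67 in stimulated WT, and 11.3 and 26.0 in stimulated labelled libraries.

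By mean level per kilobase of exon in unstimulated WT cells, the order of the genes was Vim (4724), S100a10 (1216), Ahnak (1115), Lgals1 (743), S100a4 (739.6), S100a11 (602), S100a6 (570.03), Anxa2 (142), Lgals3 (38.9) and Anxa1 (34.4). S100a10 and Ahnak overlapped in their libraries, as did each neighbouring pair from Lgals1 to S100a6, and Lgals3 and Anxa1. The other neighbours in that order did not overlap. Across the 8 libraries, all 45 pairs of the 10 genes had a positive Pearson r of their log2 values, from 0.114 (Anxa1 and Lgals1) to 0.977 (S100a6 and S100a10) with a median of 0.752. The libraries fall into 4 groups and share a size factor within a library, so these r are a description only.

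Other genes of the same families did not move as a block in unstimulated cells. Of 13 other S100 genes in the table, 5 were tested and limma called none, as did edgeR, while DESeq2 called 2, both higher. Without either labelled stimulated library limma also called 2 higher. S100a8 was at 54.0 and 39.9 in the WT and 337 and 140 in the labelled libraries, and S100a9 at 61.5 and 39.9 against 292 and 139. Both code for the calprotectin subunits of neutrophils, and neither passed by limma (log2 fold changes 2.20 and 2.00, limma adjusted p = 0.127 and 0.113).

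Of 10 other annexin genes, 7 were tested and 1 was called: Anxa4 was lower, at 245 and 233 against 105 and 41.4 (log2 fold change −1.84 ± 0.40, limma adjusted p = 0.0322). Of 7 other galectin genes, 5 were tested and Lgalsl, which codes for a galectin-related protein, was lower at 124 and 114 against 29.4 and 17.4 (log2 fold change −2.34 ± 0.36, limma adjusted p = 0.0111). The Anxa4 call was lost with every gene above 0, with equal upper quartiles, by edgeR, in the 4 libraries alone and without any 1 of the 4 WT libraries, and the Lgalsl call without WT replicate 3 or 4. After 16 h none of these 3 sets of other family genes held a gene called by limma, edgeR or DESeq2.

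Genes that work with vimentin and AHNAK moved in both directions. Of 8 tested filament, lamin and linker genes, 3 were called lower and 1 higher in the labelled unstimulated libraries, beside 3.35% and 1.38% of all genes. Only 2 of the 8, both lower, were called with every gene above 0 and in the 4 libraries alone. Lmna and Lmnb1, which code for nuclear lamins, had log2 fold changes of −2.16 and −1.91 (limma adjusted p = 0.0224 and 0.0156), the linker gene Dst −0.95 and the linker gene Macf1 0.81. Among 8 tested Ahnak partner and membrane repair genes, Capns1, the small calpain subunit, was lower (−0.80, limma adjusted p = 0.0491), a call lost at a pseudocount of 0.1, under either rescaling, by edgeR, in the 4 libraries alone and in 6 of the 8 fits with a library left out. Of 24 actin regulator genes, Capg, which codes for an actin filament capper, was lower (−1.54) and 22 were not called. Actn1, which codes for an actin crosslinker, was higher (1.32). This 1 lower and 1 higher of 24 stand beside the same 3.35% and 1.38% of all genes. Without WT replicate 3 or 4 no gene of these 3 lists was called.

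Marker lists of T cell state and of other cells were measured beside the 10 genes. Of 14 effector Treg markers, 12 were called lower in the labelled unstimulated libraries, beside 3.35% of all genes. The study had reported many of these markers as lower in these same cells, so their direction is not independent evidence. The summed level of the 14 was 48128 to 52220 in the WT and 10503 to 13246 in the labelled libraries. Without WT replicate 3 or 4, 2 of the 14 were called. Of 10 naive or resting T cell markers 8 had log2 fold changes above 0 and 2 below 0 (Ccr7 −1.07 and Il7r −0.25). Of the 10, limma called 2 higher (Bcl2 and Bach2), beside 1.38% of all genes. The number called was 1 at a pseudocount of 0.1, 0 in the 4 libraries alone, 4 with equal totals and 5 by DESeq2. In stimulated cells limma called 1 of the 10 higher (Bcl2), while DESeq2 called 7 higher and 1 lower. After 16 h, limma called 3 effector markers lower (Batf, Il10 and Itgae), beside 0.11% of all genes. The effector marker sums were then 55106 and 56234 in the WT and 38900 and 24738 in the labelled libraries. The number called after 16 h was 8 by DESeq2, 0 by edgeR, at a pseudocount of 0.1, with every gene above 0 and in the 4 libraries alone, and 0 to 11 with a library left out. The sum of the 8 S100, annexin and galectin genes was 4546 and 3278 in the WT and 1436 and 833 in the labelled unstimulated libraries, and 3413 and 3831 against 1792 and 1266 after 16 h. The part of cell state in the results on the 10 genes was not tested.

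Most macrophage and monocyte markers were higher in both labelled unstimulated libraries than in WT libraries. Of 18, 16 were tested and 9 were called higher in unstimulated cells, beside 1.38% of all genes, with Ccr2 lower. The higher calls fell to 3 at a pseudocount of 0.1, 2 with means of at least 100, 2 without the labelled replicate 1 and 0 without either WT unstimulated library. The 18 markers summed to 3192 and 3107 in the WT and 14100.3 and 2353 in the labelled unstimulated libraries, but Ccr2 and Axl made up most of the WT sums. Without these 2, a choice made after seeing the values, the sums were 363 and 371 in the WT and 12582 and 1933 in the labelled libraries. Mrc1, the macrophage mannose receptor, was at 14.03 and 5.91 in the WT and 2702 and 346 in the labelled libraries, and C1qa, a complement gene of macrophages, was at 0 in both WT libraries and at 78.6 and 10.7 in the labelled ones. The labelled unstimulated replicate 1 had the highest macrophage, B cell and neutrophil sums of any library, and it also held the highest Anxa1 value (139). Each of the 10 genes was higher in that library than in labelled unstimulated replicate 2. In the stimulated libraries the sum without Ccr2 and Axl was 278 and 245 in the WT and 364 and 307 in the labelled libraries, and C1qa and Mrc1 were at 0 in all 4. B cell markers summed to 352 and 383 in the WT and 3805 and 924 in the labelled unstimulated libraries. Of these 10 markers, 2 were called higher, beside 1.38% of all genes. Neutrophil markers summed to 258 and 143 against 1322 and 581, with 0 of 7 tested called by limma or edgeR and 3 called higher by DESeq2. Without either labelled stimulated library limma also called 3 higher. The neutrophil list includes S100a8 and S100a9. After 16 h the B cell sums were 1106 and 234 in the WT and 1646 and 350 in the labelled libraries. The neutrophil sums were then 589 and 302 in the WT and 901 and 159 in the labelled libraries. In each group numbered 1 and 2, replicate 1 had the higher B cell sum and the higher neutrophil sum. The part of macrophage, B cell and neutrophil transcripts in the results on the 10 genes was not tested.

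**Figure D4:**
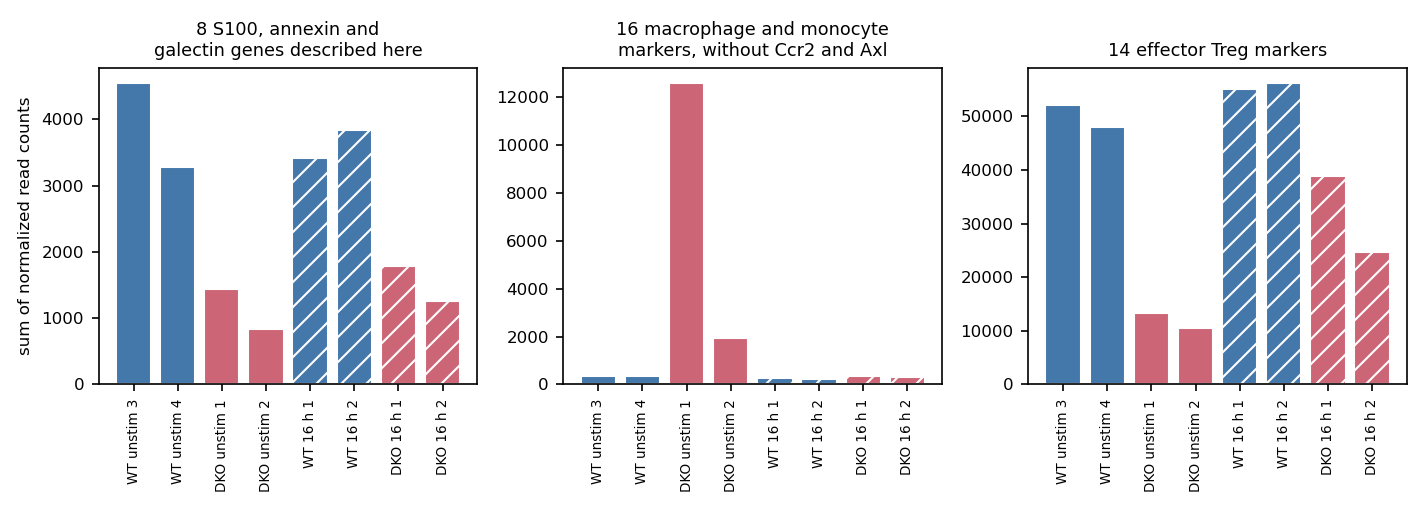
Summed normalized read counts (vertical axes, linear, from 0) of the 8 S100, annexin and galectin genes, of 16 macrophage and monocyte markers (without Ccr2 and Axl) and of 14 effector Treg markers in each library, 1 bar per library. DKO marks libraries labelled Stim1/2-deficient, and hatched bars are stimulated. The macrophage sums of the labelled unstimulated libraries, 12582 and 1933, are above the 363 and 371 of the WT libraries. In each stimulation state, the sum of the 8 genes is lower in both labelled libraries than in either WT library.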

How the data were processed

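The 8 RNA libraries of Treg cells were grouped by label and stimulation, as GEO's labels give them. The authors deposited a signal value per gene and library, that is, a read count scaled by the library's size factor, and each was a whole multiple of 1 read (tolerance 0.0051, with 1 value not whole), so whole reads were recovered. The sources differ on how they were made: the methods name Bowtie, NCBIM37, Picard duplicate removal, HTSeq and DESeq2, while the submitters' processing notes list bcl2fastq 1.8.4, STAR 2.7, DESeq2 and mm10. Of 52459 row names, 35095 were in RefSeq GRCm38.p6 and 28801 in GENCODE vM1 of NCBIM37. Vim reached 14362 reads on 2335 exon bases, more than the 4670 start positions on both strands, so reads with the same start had been counted. Kit names differ between labels and methods, and strand use in counting is not given in the sources used here, so Lgals1 (overlapping Gm30368) and Anxa2 (Mir3109) may share reads.

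Log2(value + 1) was modelled for the 15419 genes averaging 10 or more with limma 3.58.1 under R 4.3.3 (lmFit, then eBayes with its trend option), sharing 1 spread over 4 groups. Fold changes on this scale understate those of low genes. Tests were 2-sided, with Benjamini-Hochberg adjustment within each of 5 contrasts over all genes tested, and calls needed a change over 1.5-fold at an adjusted p below 0.05. Replicates are separate sorted samples of pooled mice, and no source says whether the 2 labels share mice. Alternatives were pseudocounts of 0.1 and 5, every gene above 0, means of at least 100, equal totals, equal upper quartiles, edgeR 4.0.16 (quasi-likelihood), DESeq2 1.42.0, the 4 libraries of a contrast, a replicate block and each library left out. Gene lengths are exon unions of GENCODE vM1, and promoters come from RefSeq. The fit was tested on simulated data. The 10 genes and all lists were chosen with earlier results of these data known. Named genes are the 10, then up to 4 called genes per list, with defining markers.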

Additional observations from a re-analysis of the deposited data

How the results depend on the processing

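The results rest on 2 libraries per group, and the lowest values of S100a4, S100a6 and Lgals3 rest on 11 to 27 reads. In unstimulated cells the log2 fold changes of the 8 called genes stayed below 0 under every alternative run, and the number of the 10 genes called was 5 in the 4 libraries alone and 0 to 8 with a library left out. Counts over all genes (730) were 362 with every gene above 0, 484 by edgeR, 1338 by DESeq2, 338 in the 4 libraries alone and 8 (without WT replicate 3) to 1298 (without labelled replicate 2) with a library left out. Anxa1 turned to 0.062 by edgeR and 0.055 by DESeq2, and ran from −1.01 to 0.63 with a library left out. In stimulated cells, 2 of the 10 genes were called at a pseudocount of 5, 2 with means of at least 100, 5 by DESeq2 and 0 to 5 with a library left out. All genes called (42) were 8 and 74 at pseudocounts of 0.1 and 5, 1 with every gene above 0, 82 with means of at least 100, 1 by edgeR, 550 by DESeq2, 1 in the 4 libraries alone and 0 to 762 with a library left out. Anxa2 ran from −0.42 to 0.0596. The cause of these changes was not tested.

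A replicate block could be fitted where both groups share numbers. It called 2 of the 10 genes in stimulated cells (S100a4, adjusted p = 0.0487, and Ahnak, adjusted p = 0.0471, limma) and 88 genes in all, and 4 of the 10 genes and 4854 genes in all for stimulation of the labelled cells, where S100a6 was added (adjusted p = 0.0164). Same-numbered libraries correlated at 0.167 (stimulated WT and labelled) and 0.257 (labelled, unstimulated and stimulated) in their deviations from group means, over 2 pairs each. So few pairs cannot decide whether same-numbered libraries belong together, and the main fits took them as unpaired. The effector Treg markers called in stimulated cells went from 3 to 4 under the block. No paired analysis was possible for the unstimulated genotype contrast and for stimulation in WT because these groups share no numbers. In both contrasts, any difference between the numbered sets cannot be told apart from the effect of label or stimulation.

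DESeq2 called the interaction for 50 genes, none of them among the 10, and leaving out a library gave 0 to 196. The interaction turned to 0.015 by edgeR and 0.031 by DESeq2 for Lgals3, and to 0.0091 and 0.012 for Ahnak. With a library left out it ran from −0.93 to 0.72 for Lgals3, −0.43 to 0.38 for Ahnak, −0.30 to 1.02 for S100a4, −0.017 to 0.59 for S100a10 and −1.499 to 0.14 for Anxa1. For stimulation in WT, equal totals turned S100a11 to 0.13, Anxa1 to 0.18 and Vim to 0.44, and raised Lgals1 to 0.92 (adjusted p = 0.0282, limma). With a library left out, 1 to 2 of the 10 genes and 971 to 4276 of all genes (3593) were called, and log2 fold changes ran from −0.21 to 0.27 for S100a6, −0.10 to 0.44 for S100a10, −0.031 to 0.99 for Lgals3 and −0.33 to 0.17 for Vim. For stimulation of the labelled cells, the 4 libraries alone gave 1752 calls in all (3852), equal totals turned Anxa2 to 0.30, and leaving out a library gave −0.36 to 0.19 for Anxa2, −1.13 to 0.20 for S100a4, −0.31 to 0.93 for S100a11 and −0.45 to 1.20 for Lgals3. The cause was not tested for any of these.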

Other observations

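Among 9139 other genes that averaged 100 or more normalized read counts, those whose levels over the 8 libraries were most like the mean of the 10 genes were Il10ra, which codes for the interleukin-10 receptor subunit (Pearson r = 0.998), Kif14 (0.996), Ankrd6 (0.994), Kif11 (0.993) and Top2a (0.990). Kif14 and Kif11 code for mitotic kinesins and Top2a for the topoisomerase of dividing cells. Kif11 was at 2036 and 1660.4 in the WT and 559.9 and 191 in the labelled unstimulated libraries, and at 1377 and 1210.3 against 594 and 230.5 after 16 h. Top2a was at 11728 and 9585 in the WT and 2845 and 1154 in the labelled unstimulated libraries, and at 7999.5 and 6721 against 3806 and 1716 after 16 h. These genes were picked for their likeness to the 10, which fixes their pattern, and the libraries share groups and size factors, so r is a description.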
